A study of Mus musculus with 7 samples.

Results

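The 10 genes described here act on replication-dependent histone mRNAs and their proteins, and were chosen by name for those roles: *Npat*, *Casp8ap2* and *Hinfp* in transcription, *Slbp*, *Lsm10*, *Lsm11* and *Eri1* in 3′ end processing, translation and decay, and *Nasp*, *Asf1a* and *Asf1b* in carrying the new histone proteins. They are 10 of 21928 genes matched and of 13630 genes tested, and were chosen with earlier results of these data known. Gene values were obtained by adding the estimated counts or TPM (abundance per length, scaled to a fixed total per library) of all transcripts of a gene, and each gene was set against the summed counts of the 67 histone cluster genes listed.

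The samples were whole testes enriched for preleptotene spermatocytes, the germ cells that pass through the last S phase before meiosis, from 4 wild-type and 3 *Meioc*-null (*Meioc* KO) mouse pups. The null pups carried the *Meioc* tm1.1Dpc allele, backcrossed to C57BL/6N. Pups of both genotypes received WIN 18,446, which blocks retinoic acid synthesis, at 0.1 mg per g from postnatal day 2 to day 8, then retinoic acid at 0.0125 mg per g on day 9, and testes were taken 6.75 days later. Each library came from 1.5 testes of 1 pup. The tissue included Sertoli, Leydig and other somatic cells, so in these bulk libraries fewer cells of a type and less RNA per cell cannot be told apart. Ribosomal RNA was removed and no poly(A) selection was made, so histone mRNAs without a poly(A) tail were also read.

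Replication-dependent histone mRNAs are made in S phase from clustered genes without introns and end in a conserved stem-loop instead of a poly(A) tail. NPAT, phosphorylated by cyclin E with CDK2, and CASP8AP2 (FLASH) gather at these genes in the histone locus body, and HINFP recruits NPAT to histone H4 promoters. The stem-loop is bound by SLBP, the U7 snRNP with its own subunits LSM10 and LSM11 directs the cut after it, and the exonuclease ERI1 trims the end and takes part in decay when replication stops. NASP keeps a pool of soluble H3 and H4, while ASF1A and ASF1B hand H3-H4 dimers to the complexes that place them on DNA.

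The listed transcripts of the histone cluster genes were searched for a 16-base stem-loop. It had a 6-base stem that pairs with itself, starting with GG and ending with CC, and a 4-base loop that starts with TT. Of these genes, 44 of 67 held one, as did 63.9% of their 72 transcripts (46), against 0.439% of the 43020 listed transcripts with a sequence. No transcript of the 10 genes held one. Of the histone transcript models, 13 held no bases beyond the coding region, so a stem-loop could not be found in them. The forms shown are the 3 in most genes (26, 7 and 6 genes), each from the most counted gene that held it, since this is the element SLBP binds. Capitals mark the stem-loop, read from GENCODE vM21 transcripts on GRCm38, at chr11:58955167-58955192 (+ strand) for Hist3h2a, chr13:23698084-23698109 (- strand) for Hist1h4c and chr13:23747198-23747223 (+ strand) for Hist1h2bb.
Hist3h2a: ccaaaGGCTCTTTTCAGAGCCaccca
Hist1h4c: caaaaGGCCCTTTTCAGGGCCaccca
Hist1h2bb: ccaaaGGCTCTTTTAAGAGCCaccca

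Library depth ranged from 12537852 to 20552702 estimated counts, and 3 counts corresponded to 0.151 to 0.236 CPM (counts scaled to a fixed library size, with TMM factors). *Meioc* itself, the disrupted gene, was read at 466 to 718 CPM in wild-type pups and 299 to 412 CPM in null pups (log2 fold change 0.76, quasi-likelihood test in edgeR, Benjamini-Hochberg adjusted p = 0.021). Which exons the allele lacks is not given in the sources used here, so this total does not check the labels by absence of the gene. Wild-type pup 1 stood apart from the other wild-type pups in several of the genes below, and over all genes tested its log2 CPM correlated at 0.988 with wild-type pup 2 and at 0.987 with null pup 1. Replicates are separate pups.

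In preleptotene-enriched testes, 5 of the 10 genes were more abundant in wild type than in *Meioc*-null pups, and 0 were less abundant. *Asf1b* differed most (2.29-fold), followed by *Nasp* and *Slbp* (1.70-fold each), *Npat* (1.58-fold) and *Casp8ap2* (1.50-fold). The genes that passed fell in all 3 steps: *Npat* and *Casp8ap2* in transcription, the stem-loop binding protein gene *Slbp*, and the chaperone genes *Nasp* and *Asf1b*. *Hinfp*, the U7 subunits, *Eri1* and *Asf1a* did not pass. The count at an unadjusted p under 0.05 was also 5, all higher in wild type, against 4133 of 13630 genes tested in either direction. DESeq2 called the same 5 genes. Over all 13630 genes, 11.1% passed in either direction, 7.77% as higher and 3.33% as lower in wild type, at a Benjamini-Hochberg adjusted p under 0.05 in the quasi-likelihood test of edgeR. The groups' CPM ranges did not overlap for 5 of the 10 genes and for 26.2% of all genes tested.

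**Figure D1:**
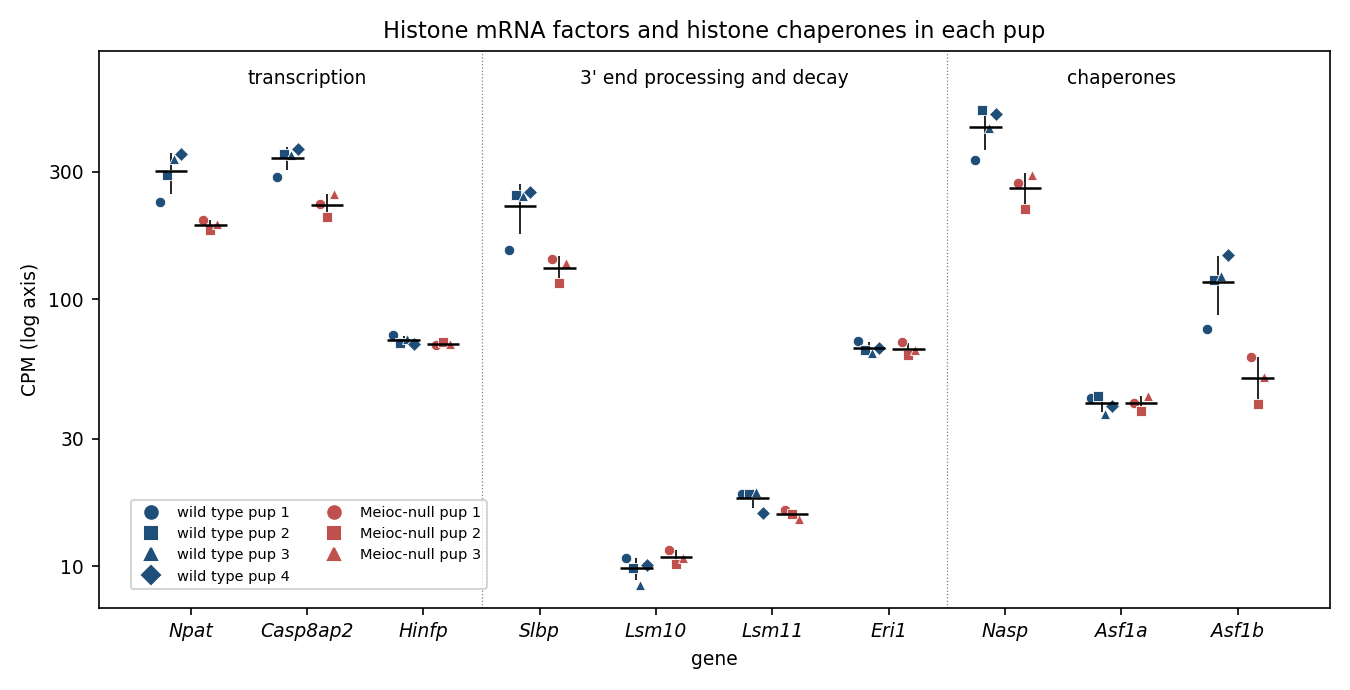
CPM (log axis) of each of the 10 genes in each pup, with wild type in blue and *Meioc*-null in red, a line at the group mean and bars of ± 1 SD. For *Npat*, *Casp8ap2*, *Slbp*, *Nasp* and *Asf1b* every wild-type pup lies above every null pup, and wild-type pup 1 (circle) is the lowest of the 4.

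*Npat* (ENSMUSG00000033054.7, chr9:53537047-53574342 on GRCm38, the build of all positions given here, + strand) encodes the coactivator that switches on histone gene transcription at S phase entry. It was read at 230, 290, 334 and 348 CPM in wild-type pups 1 to 4 and at 197, 181 and 192 CPM in null pups 1 to 3. All 4 wild-type pups lay above the null pups, which differed little among themselves, and wild-type pup 1 was nearest to them. The log2 fold change of wild type over null was 0.66 (SE 0.13, quasi-likelihood test in edgeR, Benjamini-Hochberg adjusted p = 0.018).

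*Casp8ap2* (ENSMUSG00000028282.12, chr4:32615451-32653265, + strand), whose protein FLASH also binds LSM11 during 3′ end processing, was read at 287, 350, 347 and 366 CPM in the 4 wild-type pups. The 3 null pups had 226, 202 and 246 CPM. The groups did not overlap, and wild-type pup 1 was again nearest to the null pups. Its log2 fold change was 0.58 (SE 0.10, quasi-likelihood test in edgeR, Benjamini-Hochberg adjusted p = 0.015), and it was the one gene of the 10 that passed whichever pup was left out. *Casp8ap2* had 2 main transcripts with the same 1962 coding codons, and the share of its counts on Casp8ap2-201 was 76.1%, 74.9%, 71.3% and 73.5% in wild type and 69.4%, 68.7% and 64.7% in null pups (exact two-sided permutation p = 0.0571, the smallest that 4 against 3 can give).

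*Hinfp* (ENSMUSG00000032119.5, chr9:44292440-44305671, - strand), the histone H4 promoter factor, was read at 73.3, 68.7, 70.7 and 68.2 CPM in the wild-type pups, against 67.6, 68.8 and 68.1 CPM in null pups. The ranges of the groups overlapped, with a log2 fold change of 0.04 (95% interval -0.11 to 0.19, quasi-likelihood test in edgeR, Benjamini-Hochberg adjusted p = 0.71).

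*Slbp* (ENSMUSG00000004642.13, chr5:33634952-33652574, - strand) encodes the protein that stays on the stem-loop from processing to translation. Its level was 152, 244, 242 and 252 CPM in wild-type pups 1 to 4 and 141, 115 and 137 CPM in null pups. Wild-type pups 2 to 4 lay close together, while wild-type pup 1 lay just above the null range. The log2 fold change was 0.77 (SE 0.17, quasi-likelihood test in edgeR, Benjamini-Hochberg adjusted p = 0.023).

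The U7 subunits had low levels that overlapped between the groups. *Lsm10* (ENSMUSG00000050188.8, chr4:126096623-126098584, + strand) was read at 10.8, 9.89, 8.55 and 10.2 CPM in the wild-type pups, against 11.6, 10.2 and 10.7 CPM in null pups, a log2 fold change of -0.14 (95% interval -0.43 to 0.15, quasi-likelihood test in edgeR, Benjamini-Hochberg adjusted p = 0.50). *Lsm11* (ENSMUSG00000044847.13, chr11:45928269-45944935, - strand) was read at 18.6, 18.7, 18.9 and 15.8 CPM in the wild-type pups, against 16.3, 15.7 and 15.1 CPM in null pups. Its log2 fold change was 0.19 (95% interval -0.05 to 0.44, same test, adjusted p = 0.25), and wild-type pup 4 alone lay within the null range. *Eri1* (ENSMUSG00000031527.7, chr8:35465253-35496196, - strand) was read at 70.0, 64.5, 63.0 and 65.9 CPM in the wild-type pups, against 68.9, 61.7 and 64.4 CPM in null pups, a log2 fold change of 0.02 (95% interval -0.15 to 0.19, same test, adjusted p = 0.89).

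*Nasp* (ENSMUSG00000028693.15, chr4:116601052-116627941, - strand) was read at 332, 510, 436 and 492 CPM in the wild-type pups, against 271, 218 and 290 CPM in null pups. The groups did not overlap, with wild-type pup 1 nearest to the null pups. Its log2 fold change was 0.77 (SE 0.15, quasi-likelihood test in edgeR, Benjamini-Hochberg adjusted p = 0.018).

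The 2 ASF1 paralogs bind the same histone dimer, and ASF1B is the one known to go with proliferation. *Asf1b* (ENSMUSG00000005470.8, chr8:83955507-83970197, + strand) was read at 77.6, 118, 122 and 147 CPM in the wild-type pups, against 60.6, 40.7 and 51.1 CPM in null pups. Every wild-type pup was above every null pup, and the log2 fold change was 1.19 (SE 0.21, quasi-likelihood test in edgeR, Benjamini-Hochberg adjusted p = 0.013). *Asf1a* (ENSMUSG00000019857.7, chr10:53596757-53609225, + strand) was read at 42.8, 43.4, 37.2 and 39.7 CPM in the wild-type pups, against 40.8, 38.0 and 43.6 CPM in null pups. These ranges overlapped, with a log2 fold change of -0.0017 (95% interval -0.20 to 0.20, same test, adjusted p = 0.99). Per length, the ratio of *Asf1b* to *Asf1a* TPM was 0.483, 0.694, 0.879 and 0.952 in wild type and 0.377, 0.395 and 0.296 in null pups (exact two-sided permutation p = 0.0571, the smallest possible). The split of *Asf1a* among its transcripts varied widely within a group, with Asf1a-204 holding 29.1% to 60.5% of its counts in the 3 null pups, so its TPM rests on an uncertain division of reads.

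Of the 5 calls, all but that of *Casp8ap2* depended on single pups. *Npat* and *Nasp* did not pass without wild-type pup 2 or 3 or null pup 2 or 3, *Slbp* without any pup but wild-type pup 1 or null pup 1, and *Asf1b* without null pup 3. Over these fits the log2 fold changes stayed between 0.57 and 0.77 for *Npat*, 0.68 and 0.91 for *Slbp*, 0.66 and 0.88 for *Nasp* and 1.05 and 1.34 for *Asf1b*. Without wild-type pup 1 the same 5 genes passed. On log2(TPM + 1) in limma, *Slbp* did not pass (log2 difference 0.39, adjusted p = 0.057) and the other 4 did.

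**Figure D2:**
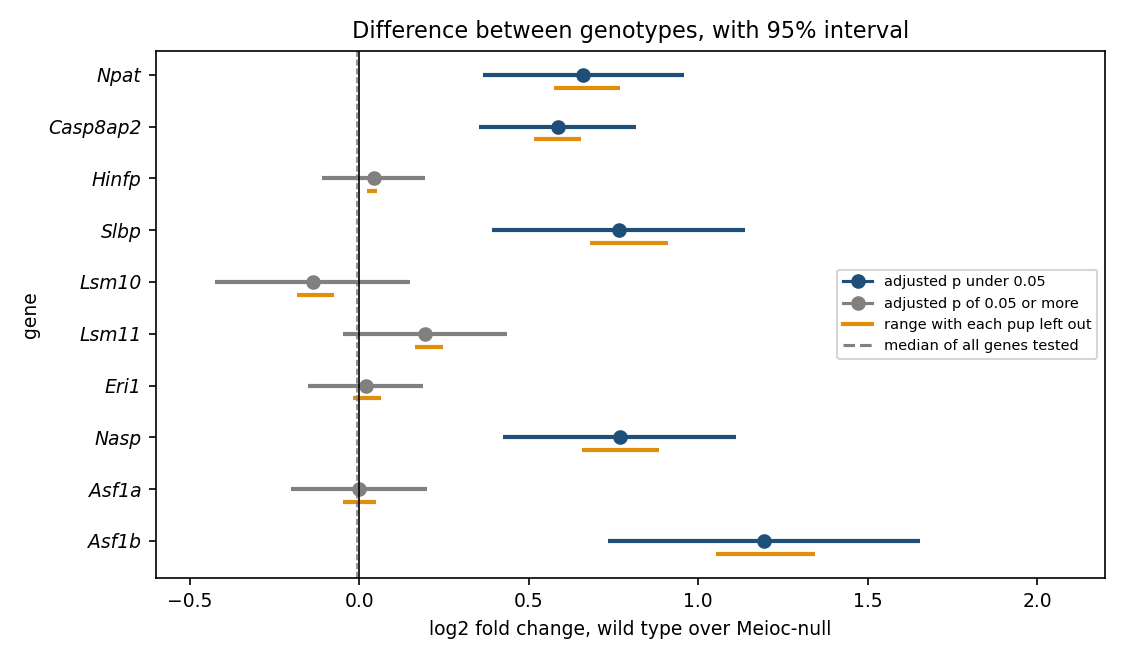
Log2 fold change of wild type over *Meioc*-null for each gene (points) with its 95% interval (line), and below it in orange the range when each pup is left out in turn. The 5 genes in blue passed the test, from 0.58 for *Casp8ap2* to 1.19 for *Asf1b*, and the intervals of the grey genes include 0.

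Per length, the order of the 10 genes in wild type ran from *Nasp* at 420 ± 43.0 TPM (SD, n = 4) and *Slbp* at 269 ± 44.1 TPM to *Lsm11* at 3.17 ± 0.350 TPM. Between them came *Asf1a* (129 TPM), *Casp8ap2* (114 TPM), *Npat* (98.5 TPM) and *Asf1b* (95.1 TPM), neighbours whose ranges over pups overlapped in wild type. *Eri1* (22.4 TPM), *Hinfp* (18.6 TPM) and *Lsm10* (16.2 TPM) followed, also with overlapping ranges between neighbours. In null pups the order was the same, with *Nasp* at 320 ± 25.8 TPM (SD, n = 3) and *Asf1b* at 49.5 ± 7.35 TPM, below *Npat* (74.3 TPM) in all 3 pups. In wild type *Npat* lay above *Asf1b* in 2 of 4 pups.

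The *Nasp* difference lay in its long transcript. Nasp-201 has 16 exons and 773 coding codons and is the only listed *Nasp* transcript with exon 7, 975 bases at chr4:116610403-116611377 (GRCm38), all coding. Nasp-202 (448 codons) and Nasp-203 (421 codons) join the flanking exons directly. The long and short proteins are known as testis and somatic NASP. The exon junctions are shown because reads over them and in exon 7 tell the forms apart. Each line gives 15 bases on either side, from GENCODE vM21, with the bases after the junction in capitals, on the - strand.
Nasp-201, exon 6 to 7: atgataatgtagatgAGGAAGCAAGGGAAG
Nasp-201, exon 7 to 8: tgaaagagggtgaagAAACTGAAGGCTCAG
Nasp-202, exon 5 to 6: atgataatgtagatgAAACTGAAGGCTCAG

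Nasp-201 was estimated at 226, 421, 366 and 416 CPM in wild-type pups and at 182, 144 and 187 CPM in null pups, a ratio of the means of 2.09. Nasp-202 and Nasp-203 together had 106, 88.9, 70.5 and 75.8 CPM in the wild-type pups, against 89.4, 73.7 and 103 CPM in null pups, a ratio of 0.961. The long form thus lay higher in every wild-type pup, and the short forms overlapped between the groups (exact two-sided permutation p = 0.0571 and p = 0.80, with 0.0571 the smallest possible). Taken singly, the short forms went opposite ways, with ratios of the means of 1.17 for Nasp-202 and 0.782 for Nasp-203. Nasp-203 has no exon bases of its own among the listed transcripts, so its level is the least certain. As a share of *Nasp* counts, Nasp-201 made up 68.0%, 82.6%, 83.8% and 84.6% in wild type and 67.0%, 66.2% and 64.4% in null pups, a difference of 13.9 percentage points (exact two-sided permutation p = 0.0571). Wild-type pup 1 had a share close to the null pups, and without it the difference was 17.8 points. Reads shared by the transcripts were divided by estimation, and no interval for that division was used here.

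**Figure D3:**
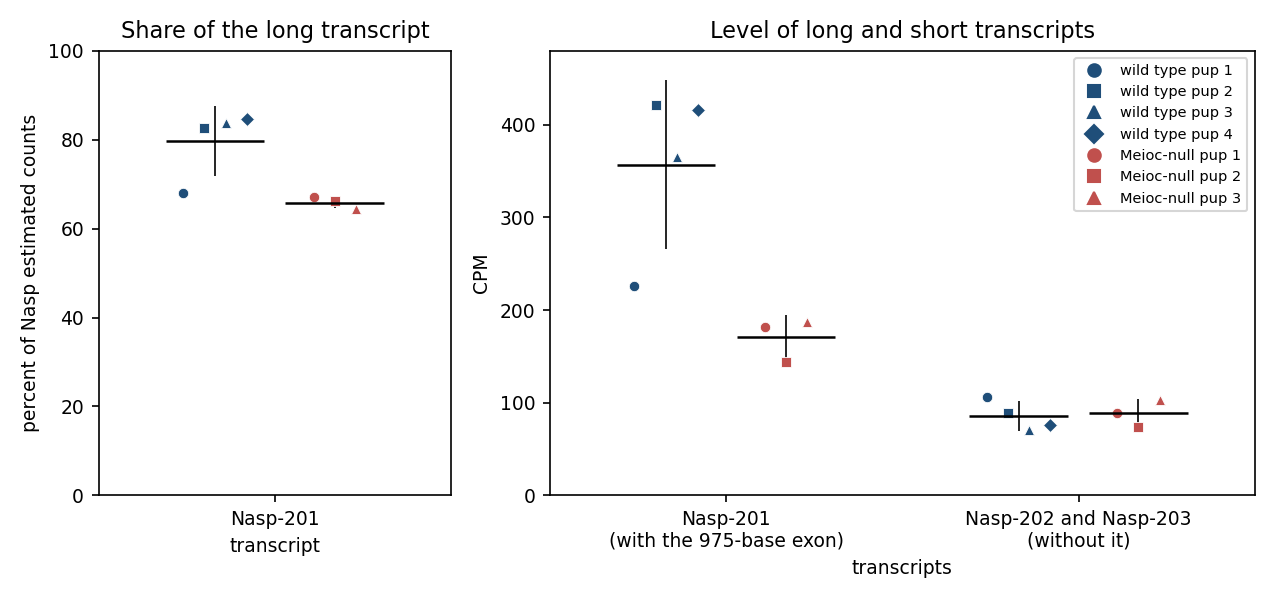
Left, percent of *Nasp* estimated counts on Nasp-201, and right, CPM of Nasp-201 and of the other transcripts together, in each pup (wild type in blue, *Meioc*-null in red, line at the mean, bars of ± 1 SD). Nasp-201 is at 226 to 421 CPM in wild type against 144 to 187 CPM in null pups, while the other transcripts overlap.

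The summed histone cluster genes were higher in wild type in every pup. The sum over 67 genes was 9775, 19889, 22212 and 19815 CPM in wild-type pups 1 to 4 and 9018, 5073 and 6702 CPM in null pups, a mean log2 difference of 1.34 (exact two-sided permutation p = 0.0571, the smallest possible for 4 against 3). By class, the mean log2 difference was 1.23 for H1 (6 genes), 1.38 for H2A (18), 1.69 for H2B (18) and 1.46 for H4 (13), with no overlap between the groups. For H3 (12 genes) it was 0.54, and wild-type pup 1 (464 CPM) lay below null pup 1 (651 CPM). Near-identical histone genes share reads, so only sums are given.

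The pups that were low in histone counts were low in the 5 genes that passed. Wild-type pup 1 had the lowest histone sum of the 4 wild-type pups and the lowest level of each of the 5, and null pup 2 had the lowest histone sum of all 7 libraries and the lowest level of each. In none of the other 5 genes was wild-type pup 1 the lowest wild-type pup. The order was not particular to histone genes. Wild-type pup 1 and null pup 2 were also lowest of their groups in summed germ cell markers (2324 and 1464 CPM). The same held for summed S phase genes (1711 and 1293 CPM). Single germ cell markers did not all follow their sum. *Dazl*, *Tex101* and *Sycp3* were lowest in these pups of both groups. Among null pups, *Ddx4* (196 CPM) and *Mael* (161 CPM) were highest in pup 2, and *Stra8* and *Kit* were lowest in pup 3. Among wild-type pups, *Mael* and *Stra8* were lowest in pup 1, *Ddx4* in pup 3 and *Kit* in pup 4. That a null pup was lowest follows from taking genes called higher in wild type. All values of a pup came from 1 library, so these orders share their depth and scaling, and they are given as a description.

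**Figure D4:**
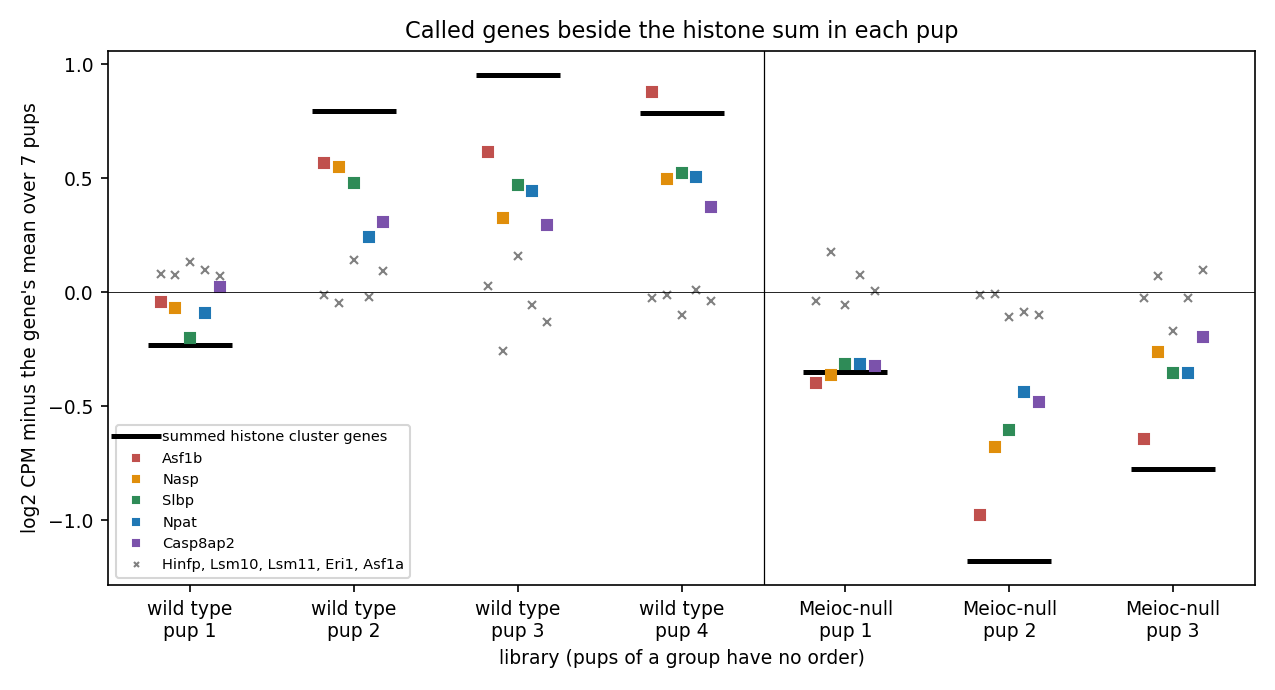
Log2 CPM of each gene minus its mean over the 7 pups, with the summed histone cluster genes as black bars, the 5 genes that passed as coloured squares and the other 5 as grey crosses. In wild-type pup 1 the histone sum is at -0.23 and in null pup 2 at -1.18, against 0.79 to 0.95 in wild-type pups 2 to 4.

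Set against each gene in turn, histone counts per gene count differed least between the groups for *Asf1b*. Each ratio divides the same histone sum by the gene's own CPM. The order of the ratios thus largely restates the genes' fold changes and does not show that a gene follows the histone sum. Histone CPM per *Asf1b* CPM was 126, 168, 181 and 135 in wild type and 149, 125 and 131 in null pups, overlapping ranges with a ratio of means of 1.13 (exact two-sided permutation p = 0.34, among 10 such ratios). Per *Slbp* CPM it was 64.2 to 91.7 in wild type and 44.1 to 64.0 in null pups, a ratio of means of 1.51. For *Nasp* the ratio of means was 1.50, for *Npat* 1.62 and for *Casp8ap2* 1.70, each with overlapping ranges. For the genes that did not pass it ran from 2.28 (*Lsm11*) to 2.94 (*Lsm10*).

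Summed markers of germ cells were also higher in wild type, to unlike degrees by gene. Of 7 germ cell markers, 5 passed as higher in wild type (71.4%, against 7.77% of all genes tested). Log2 fold changes of the 7 ran from 0.24 to 1.27. Their summed level was 2324 to 2982 CPM in wild type against 1464 to 1770 CPM in null pups. Of 24 S phase genes (replication and nucleotide synthesis), 12 passed as higher (50%, against the same 7.77%), with a summed level of 1711 to 2315 CPM against 1293 to 1625 CPM. The Sertoli sum was 1338 to 1497 CPM in wild type and 1390 to 1562 CPM in null pups, and those of Leydig (260 to 549 and 318 to 621), peritubular myoid (534 to 613 and 507 to 591) and endothelial markers (66.0 to 82.6 and 70.7 to 87.4) overlapped as well, as did that of macrophages (88.6 to 91.8 and 90.4 to 116). Of these somatic lists, 1 of 8 Sertoli and 1 of 5 myoid markers passed, both as lower, as did 3.33% of all genes tested. Of the late germ cell markers *Prm1*, *Prm2* and *Tnp1* were at or under 3 counts, and the list summed to 54.3 to 77.5 CPM in wild type and 48.4 to 50.3 CPM in null pups. The 2 late markers tested, named after their values were seen, had opposite signs: *Hspa2*, which made up most of the sum, was at 49.7 to 74.6 CPM in wild type against 42.8 to 45.6 CPM in null pups (log2 fold change 0.53, quasi-likelihood test in edgeR, Benjamini-Hochberg adjusted p = 0.033), and *Piwil1* at 2.31 to 4.26 CPM against 4.28 to 6.86 CPM (log2 fold change -0.70, same test, adjusted p = 0.11). The part of germ cell or S phase content in the 5 differences was not tested.

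Most other genes of the pathway did not pass. Of 104 further genes matched (103 tested), 13 were higher and 1 lower in wild type, or 13.6% against the 11.1% of all genes, with a median log2 fold change of 0.06 against -0.0065 over all genes. For the 10 genes the median was 0.39. Leaving out wild-type pup 1 gave 17 higher and 3 lower, where 1440 and 732 of all 13630 genes tested passed. The other 6 fits with 1 pup left out gave 0 to 14 higher, against 113 to 1275 of all genes. These calls thus rest on single pups, as do those over all genes.

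Among cofactors and regulators of histone transcription, 4 of 16 tested rose in wild type (25%, against 7.77% of all genes tested). *Ccne2* was at 489 ± 130 CPM in wild type (SD, n = 4) against 197 ± 59.3 CPM in null pups (SD, n = 3), and *Ccne1* at 16.8 ± 3.63 and 7.95 ± 2.06 CPM, with log2 fold changes of 1.31 and 1.08 (quasi-likelihood test in edgeR, Benjamini-Hochberg adjusted p = 0.018 for both). They encode the E cyclins that activate CDK2, the kinase of NPAT. *E2f1*, a transcription factor of S phase genes, had a log2 fold change of 0.63 and *Atm*, the DNA damage kinase, of 0.62 (same test, adjusted p = 0.033 and 0.027). *Atm* and *Npat* lie head to head on chromosome 9, on opposite strands with 306 bases between their annotated starts.

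Among other 3′ end processing genes, 3 of 30 rose (10%, near the 7.77% of all genes tested). These were *Nelfe*, a subunit of the negative elongation factor (58.3 ± 9.84 CPM, n = 4, and 35.8 ± 4.65 CPM, n = 3; log2 fold change 0.70), *Snrpe*, an Sm protein of the U7 and spliceosomal snRNPs (log2 fold change 0.40), and *Cstf2*, a subunit of cleavage stimulation factor (log2 fold change 0.39), with adjusted p = 0.020, 0.032 and 0.023 in the same edgeR test. Of 24 genes of histone mRNA translation and decay, only *Lsm3*, a subunit of the LSM ring on mRNA 3′ ends, rose (log2 fold change 0.46, adjusted p = 0.027, edgeR). That share of 4.17% lay below the 7.77% of all genes, so neither list stood out by its count.

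Among other chaperones and histone acetylation or deposition factors, 5 of 33 rose and 1 fell (18.2% in either direction, against 11.1% of all genes tested). The risers with the largest differences were *Dnajc9*, a co-chaperone that binds H3-H4 (79.9 ± 15.5 CPM, n = 4, and 46.1 ± 8.91 CPM, n = 3; log2 fold change 0.79), *Oip5*, a subunit of the MIS18 complex that prepares centromeres for CENP-A (0.61), *Hat1*, which acetylates new histone H4 (0.57), and *Tonsl*, which reads new H4 on replicated DNA (0.48), with adjusted p = 0.024, 0.037, 0.021 and 0.040 in edgeR's test. *Atrx*, which deposits H3.3 with DAXX, fell in wild type, at 360 ± 33.4 CPM (n = 4) against 482 ± 67.4 CPM (n = 3; log2 fold change -0.42, quasi-likelihood test in edgeR, Benjamini-Hochberg adjusted p = 0.040). Each gene named from the 4 lists passed in 2 or 3 of the 7 fits with 1 pup left out.

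**Figure D5:**
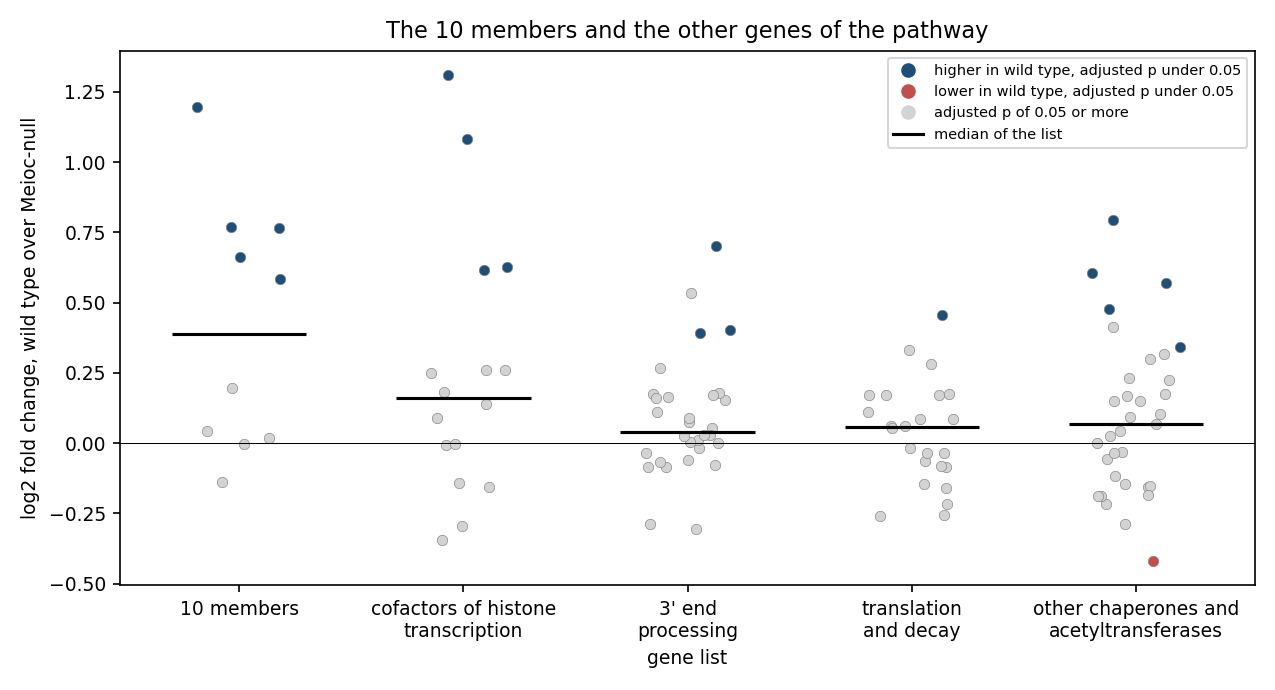
Log2 fold change of wild type over *Meioc*-null for the 10 genes and for the tested genes of 4 further lists of the pathway, with one point per gene and a line at the median of each list. The median is 0.39 for the 10 genes and 0.16, 0.04, 0.06 and 0.07 for the other lists, and the highest points are *Ccne2* (1.31), *Asf1b* (1.19) and *Ccne1* (1.08).

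Promoter sequences, from 250 bases before to 50 after the start site, were in RefSeq (GRCm38.p6) for 8 of the 10 genes, without *Hinfp* and *Eri1*. The E2F words searched, on either strand, were TTCCCGC as the first spelling, TTGGCGC as the second, TTCGCGC as the third and TTGCCGC as the fourth. At least 1 was in 2 of the 8 promoters, those of *Casp8ap2* and *Npat*, and in 9.57% of 32851 promoters of the same length. Neither the E-box CACGTG (7.15% of promoters) nor CNCCTCAG (7.94%) was in any of the 8 on either strand, while CCAAT (37.4%) was in 7. The 30-base windows that hold the E2F words are shown because both genes passed the test. Capitals mark the words, which overlap on the 2 strands in the first line, and the windows lie on the + strand at chr4:32615284-32615313, chr4:32615321-32615350 and chr9:53537023-53537052.
Casp8ap2, first window: agtaccagagtTTGGCGCCAActggaatct
Casp8ap2, second window: cgccttcaatgGCGGGAActggctgtgtgc
Npat: ggcgggacaaaTTGCCGCgggttcagcacc
The words begin 175 and 138 bases before the RefSeq *Casp8ap2* start and 13 bases before the RefSeq *Npat* start. For *Casp8ap2* this start differs from the GENCODE gene start given above. A match is a description of letters, and no factor binding was measured.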

How the data were processed

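Total RNA of 7 libraries was sequenced after ribosomal RNA removal. Per the labels and methods, the authors trimmed reads with cutadapt 1.8 and estimated transcripts with kallisto 0.44.0 (GENCODE Basic vM15, strand-specific), kept protein-coding genes and renormalized TPM, so the deposited values are estimated counts and TPM. Members and lists were chosen with earlier results of these data known. Estimated counts were added by gene through GENCODE vM21 (119 of 43139 transcripts unmatched, 0.247% to 0.282% of counts), rounded, and genes were kept where 3 or more libraries had a TPM of 1 or more. edgeR 4.0.16 (TMM, quasi-likelihood test, Benjamini-Hochberg adjustment) compared 4 wild-type with 3 null libraries under R 4.3.3, after a test on simulated data. Alternatives used DESeq2 1.42.0, limma 3.58.1 on log2(TPM + 1) and log2(TPM + 0.1), other scalings, filters and each library left out. Depth and floors cover counting error only. All 10 members were named, with up to 4 genes per direction passing in each further list, and histone genes as sums. No 2 libraries of a group agreed within counting noise (smallest mean chi-square per gene 7.95). The ERCC spike-in mixes, which differed between the genotypes, were not used.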

Additional observations from a re-analysis of the deposited data

Results flagged for a closer look

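Among 31 groups of 4 wild-type values checked for a sample far from the others, 5 had one, where chance gives about 1 in 20. In 4 of them it was wild-type pup 1, low in *Slbp* (152 CPM, nearest 242), *Ccne2* (296 CPM, nearest 538) and *Atm* (347 CPM, nearest 514) and in the share of *Nasp* counts on Nasp-201 (68.0%, nearest 82.6%). In the other, wild-type pup 4 was low in *Lsm11* (15.8 CPM, nearest 18.6). The rate of 1 in 20 holds for a single group. The 31 groups come from the same 4 pups and are not independent, so their 5 flags cannot be weighed against that rate.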

How the results depend on the processing

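With 4 against 3 pups, the count of genes passing depended on single pups: 1513 genes passed with all pups, and 131 to 2172 with 1 left out (lowest without null pup 3), while members higher in wild type ranged from 1 to 5, further genes higher from 0 to 17 and lower from 0 to 3. Pups of the same replicate number did not deviate alike from their group means (correlations of same-numbered deviations -0.057, -0.104 and -0.232). Deviations within a group cancel out, so these values cannot show whether same-numbered pups shared a batch. In a fit with a replicate block on pups 1 to 3, 114 genes, 0 members and 0 further genes in either direction passed, against 542 genes, 4 members, 2 further genes higher and 0 lower in the same pups without the block, a fit added after seeing the data. DESeq2 called 2331 genes. On log2(TPM + 1), 2522 genes passed and on log2(TPM + 0.1) 2506, each with 5 further genes higher and 12 lower. With no scaling beyond library size 2 further genes were lower. The split of calls was 1059 higher of 1513, 814 of 1713 without scaling, and 440 of 2522 on log2(TPM + 1), where the median of all genes was -0.23, and 443 of 2506 on log2(TPM + 0.1). Relative to that median of -0.23, *Slbp* was at 0.61 (0.39 as fitted, adjusted p = 0.057, limma, so not called) and *Asf1b* at 1.14.

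Members near 0 changed sign: *Hinfp* (-0.034 without scaling, -0.20 and -0.21 on the TPM scales), *Eri1* (-0.058, -0.22 and -0.23, and -0.018 to 0.063 with 1 pup left out), *Lsm11* (-0.036 and -0.046 on the TPM scales) and *Asf1a* (-0.050 to 0.048 with 1 pup left out, 0.0028 with the block, 0.0032 without it). The cause of these changes was not tested. The histone sum and the *Nasp* transcript share kept their direction in every alternative run.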
